A study of Mus musculus with 30 samples.

Results

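The genes described here are 9 that mature olfactory sensory neurons express, namely Omp, Adcy3, Cnga2, S100a5, Ncam2, Reep1, Olfm1, Ebf2 and Chga. They were chosen by gene symbol, through every probe set (the group of short probes that reads 1 transcript) annotated to a single gene. They are 9 of 8251 genes with such a probe set on the array. Of their 13 probe sets 11 passed the filter on low signals, and each of the 9 genes had at least 1 that passed. The 9 genes were chosen with earlier results of these data known.

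The samples were 30 Affymetrix MG-U74Av2 arrays of RNA from microdissected olfactory epithelium of mice aged 6 weeks, labelled wild type or SR-A mutant. SR-A is the class A macrophage scavenger receptor, the product of Msr1. The tissue was taken at 0, 2, 8, 16 and 48 h relative to bilateral olfactory bulbectomy, surgery that removes the pair of olfactory bulbs into which the sensory axons grow, and each of the 10 genotype-by-time groups had 3 arrays. The series text names 3 mice of each genotype and 15 arrays carry each label, so it is not known whether each array came from a mouse of its own, and p-values measure the spread between arrays, which may in part be technical. The series title gives that surgery for all groups, but whether mice at 0 h were operated is not stated, and the sex, strain and mutant allele are not given in the sources used here.

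Some arrays and labels need care. The control probe sets for Gapdh, read at both ends of the transcript, read higher at the 3' than at the 5' end by 5.59, 0.15 and 1.27 (log2) on the mutant-labelled 2 h arrays, while on the other 27 this difference was -0.31 to -0.13. A high value marks RNA in which the 5' end is poorly represented. Those 3 arrays were therefore kept out of the fit for every other comparison, which leaves 27 arrays, and where fitting all 30 together ends a call on 1 of the 9 genes, that is said beside the gene or the count. On its brighter probe set Msr1 read higher in mutant-labelled arrays (297.5 to 587.4) than in wild-type-labelled ones (32.6 to 295.1, 15 arrays each), which does not check the labels, so the groups are called wild-type-labelled and mutant-labelled.

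An odorant that binds its receptor on the cilia of a mature sensory neuron activates a G protein, which switches on adenylyl cyclase. The cyclic AMP made there opens a cyclic nucleotide-gated channel, and the entry of calcium depolarises the cell. These neurons live at the surface of the nasal cavity, send 1 axon each into the bulb and are replaced throughout life from basal stem cells, and loss of the bulb is known to be followed by the death of many of them.

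EBF proteins (also called Olf-1 or O/E factors), of which Ebf2 is 1, are known to bind a palindrome with the core CCCNNGGG near the start of several olfactory neuron genes. RefSeq windows from 250 bases before to 50 bases after the transcript start (GRCm38.p6) were held for 7 of the 9 genes, and Omp and Ebf2 had no entry. The core was searched on both strands, where it reads the same, and it stood in 2 of those 7 genes, Cnga2 and Reep1, against 15.4% of all 27025 genes with windows of that length. The longer form TCCCNNGGGA was in none of the 7 and in 1.06% of all genes. The windows with a match are shown because their matches begin at nearly the same place relative to the transcript start of each window. They begin 66 bases before it for Cnga2 and 65 before it for Reep1. Adcy3, which had the lowest 48 h signals relative to 0 h in the wild-type-labelled arrays, is shown beside them without one. RefSeq places the beginning of the Reep1 and Adcy3 genes (71707429 and 4133116) before the windows shown. Those 2 windows, with the Reep1 match, thus lie inside the genes as placed, at a later transcript start. Capitals mark the match, all 3 windows lie on the plus strand, and a match is a description of letters only.
Cnga2 (chrX:71991599-71991898, GRCm38.p6): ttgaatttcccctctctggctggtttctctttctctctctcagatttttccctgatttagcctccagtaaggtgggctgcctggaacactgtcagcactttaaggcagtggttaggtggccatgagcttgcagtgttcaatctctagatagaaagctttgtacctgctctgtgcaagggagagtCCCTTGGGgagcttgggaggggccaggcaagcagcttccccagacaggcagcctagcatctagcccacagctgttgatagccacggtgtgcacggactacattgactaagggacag
Reep1 (chr6:71707431-71707730, GRCm38.p6): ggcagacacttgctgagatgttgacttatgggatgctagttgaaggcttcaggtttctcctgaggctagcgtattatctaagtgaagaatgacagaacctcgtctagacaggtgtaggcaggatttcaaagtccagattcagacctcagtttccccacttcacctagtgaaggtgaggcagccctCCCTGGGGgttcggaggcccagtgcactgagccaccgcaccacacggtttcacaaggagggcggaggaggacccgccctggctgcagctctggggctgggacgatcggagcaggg
Adcy3 (chr12:4133147-4133446, GRCm38.p6): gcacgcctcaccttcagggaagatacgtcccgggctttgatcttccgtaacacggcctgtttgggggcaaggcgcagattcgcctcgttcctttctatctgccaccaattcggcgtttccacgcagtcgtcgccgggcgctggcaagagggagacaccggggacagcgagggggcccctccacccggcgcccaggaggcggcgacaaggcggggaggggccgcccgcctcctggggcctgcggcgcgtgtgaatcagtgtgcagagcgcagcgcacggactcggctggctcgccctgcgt

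The question the time course addresses is when the transcripts of mature sensory neurons change after their target is removed. They were lower at 48 h, and none of the 9 passed the test at 8 h in either label. In the wild-type-labelled arrays 7 of the 9 genes fell at 48 h relative to 0 h, led by Adcy3, and in the mutant-labelled arrays 5 fell, led by Olfm1. Omp, Adcy3, Cnga2 and Chga fell in both on their brightest probe sets, though the other tested Chga probe set did not pass in the mutant-labelled arrays. With all 30 arrays fitted, the Omp calls of both labels and the mutant-labelled Cnga2 call were lost. Each change is a difference between group means of log2 signal (3 arrays a group) ± its standard error, from limma with Benjamini-Hochberg adjustment over the 6968 tested probe sets, and a change is called at an adjusted p under 0.05. In bulk tissue, fewer cells of a type and less RNA per cell cannot be told apart.

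**Figure D1:**
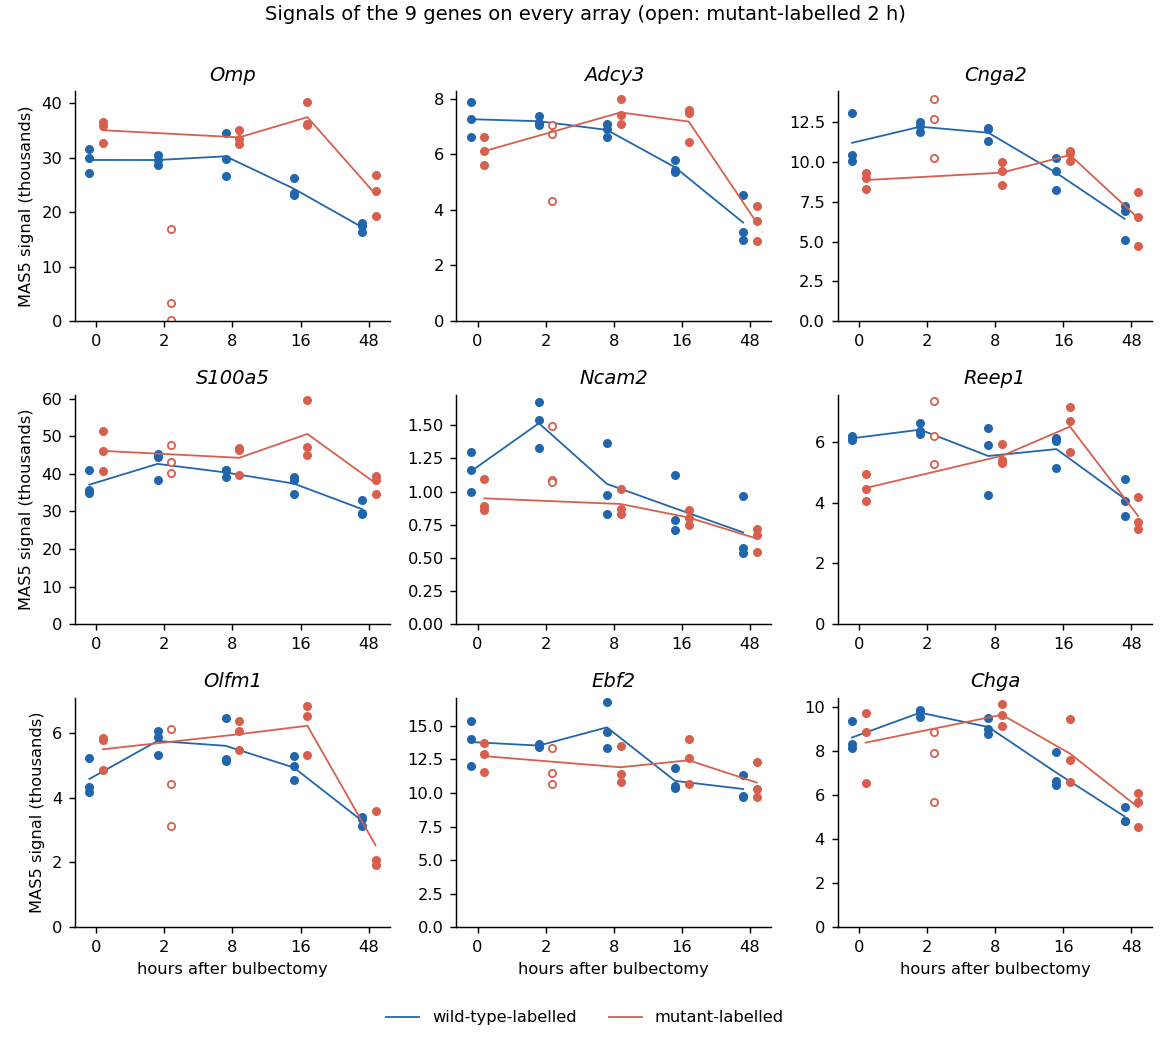
MAS5 signal (vertical axis, linear, from 0, scaled as its label says) of each gene on its brightest probe set, by hours after bulbectomy (horizontal axis, evenly spaced categories). Each point is 1 array, blue for wild-type-labelled and red for mutant-labelled, lines join group means, and open points are the mutant-labelled 2 h arrays, which the lines pass over. Every wild-type-labelled 48 h point lies below every wild-type-labelled 0 h point in all 9 panels, and the share of all probe sets for which this holds is not given here.

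Across comparisons the counts were as follows. Because the 9 genes were chosen with earlier results of these data known, their counts beside the shares of all probe sets are descriptions. Among wild-type-labelled arrays 0 of 9 genes changed at 2 h and at 8 h in limma (0 also at an unadjusted p under 0.05 both times), where 1.89% and 0.244% of all tested probe sets did. At 16 h 0 of 9 passed against 9.59% of all probe sets, 4 had an unadjusted p under 0.05, and 7 lay below 0 with a median of -0.28. At 48 h 7 of 9 fell and 0 rose against 18.8% of all probe sets called in either direction, and the median change was -0.78 where that of all genes was -0.02. Between 16 h and 48 h 5 of 9 fell, against 4.68% of all probe sets. Single arrays carried much of that last count: without wild-type-labelled 48 h replicate 1 it was 0, without 16 h replicate 1, 2 or 3 it was 1, 2 and 2, without 48 h replicate 2 or 3 it was 3 and 4, and with all 30 arrays fitted it was 1.

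In the mutant-labelled arrays 0 of 9 genes passed at 8 h in limma (2 at an unadjusted p under 0.05), against 2.54% of all probe sets. At 16 h 1 rose against 5.18%, and the median of the 9 was 0.13. At 48 h 5 fell and 0 rose against 13.2%, with a median of -0.56 where that of all genes was 0.02. Relative to 16 h, 7 of 9 were lower at 48 h against 9.0% of all probe sets, with a median of -0.70. When only the 6 arrays compared were fitted, in place of the spread shared by 27, the counts became 2 (Adcy3 and Olfm1) at 48 h and 1 against 16 h, and in the wild-type-labelled arrays 0 from 16 to 48 h. With all 30 arrays fitted the mutant-labelled counts were 3 at 48 h and 6 against 16 h. The group means of the 48 h arrays of both labels were the lowest of the 9 groups for 8 of the 9 genes, the exception being S100a5. Every 48 h array lay below every 0 h array of its label for 9 of 9 genes in the wild-type-labelled and 7 of 9 in the mutant-labelled arrays, where Reep1 and Ebf2 overlapped. The shares of all probe sets with these patterns of group means and arrays are not given here, so both counts are descriptions only.

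**Figure D2:**
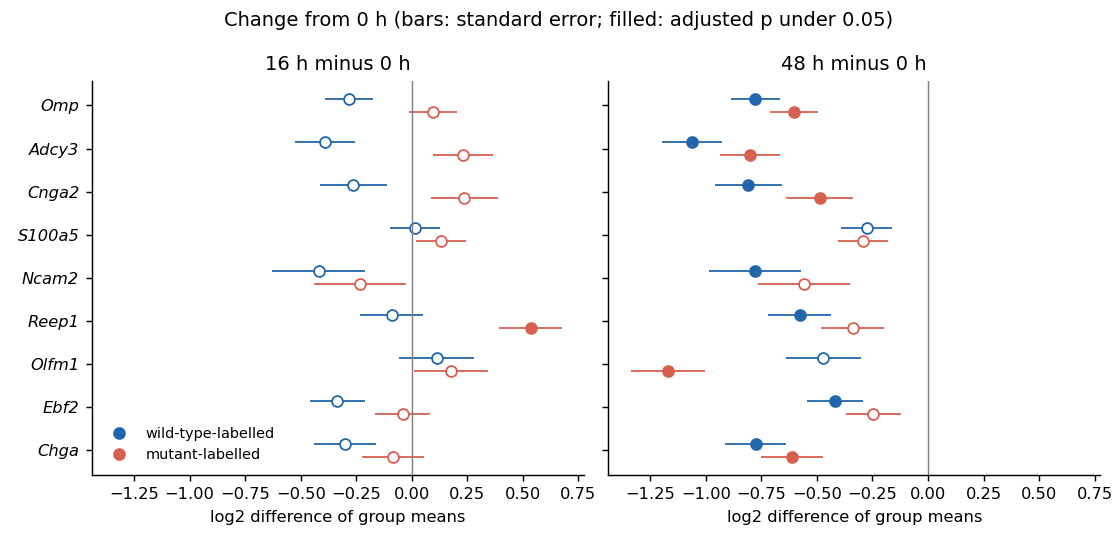
Log2 change from 0 h at 16 h (left) and at 48 h (right) for each gene, blue for wild-type-labelled and red for mutant-labelled arrays, as a difference of group means with a bar of 1 standard error on each side (3 arrays a group). Filled points have an adjusted p under 0.05. At 16 h the only filled point is Reep1 in the mutant-labelled arrays, and at 48 h all 18 points lie below 0 and 12 are filled.

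Omp encodes olfactory marker protein, a small cytoplasmic protein by which mature olfactory neurons are recognised (chr7:98143359-98145447; gene positions are RefSeq's on GRCm38.p6). Its wild-type-labelled signals were 29997, 31605 and 27105.5 at 0 h, 26269, 23187 and 23450.5 at 16 h and 16299.5, 17497.5 and 17923 at 48 h. Its mutant-labelled signals were 35807, 36516 and 32772 at 0 h, 35962, 40155 and 36190.3 at 16 h and 23806, 19230.3 and 26773 at 48 h. The 48 h arrays of each label did not overlap those at 0 or 16 h and lay below them, and in the wild-type-labelled arrays those at 16 h also lay below all 3 at 0 h. At 48 h the wild-type-labelled arrays held 55.1% to 60.6% of their 0 h mean and the mutant-labelled arrays 54.9% to 76.4% of theirs.

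The 48 h change of Omp was -0.78 ± 0.11 (adjusted p = 3.91e-05) in the wild-type-labelled and -0.60 ± 0.11 (adjusted p = 0.000992) in the mutant-labelled arrays. The difference between these changes was 0.17 ± 0.15 (adjusted p = 0.558). With the mutant-labelled 2 h arrays in the fit the standard error of each change was 0.86 and neither passed (adjusted p = 0.602 and 0.738); Omp itself ran from 128.5 to 16964 on those 3 arrays. In order of group means the mutant-labelled 16, 0 and 8 h groups stood first and the wild-type-labelled 8, 0 and 2 h groups next, each overlapping its neighbour. The wild-type-labelled 16 h group lay below all of these without overlap, the mutant-labelled 48 h group overlapped it and, by 1 array, the wild-type-labelled 8 h group, and the wild-type-labelled 48 h group lay below every one of them.

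Adcy3 encodes the adenylyl cyclase that makes cyclic AMP in the olfactory cilia (chr12:4133116-4213525). The wild-type-labelled signals were 7280.3, 7868 and 6633.5 at 0 h, 5808, 5435 and 5346 at 16 h and 2899, 3189.7 and 4532 at 48 h. The mutant-labelled ones were 6104, 6629 and 5607 at 0 h, 7609.9, 6447 and 7474 at 16 h and 4123, 2878.5 and 3600.5 at 48 h. Among the 27 arrays both 48 h groups lay below every other group without overlap, at 39.9% to 62.4% and 47.1% to 67.4% of their 0 h means. The 48 h changes were -1.06 ± 0.13 (adjusted p = 1.48e-05) and -0.80 ± 0.13 (adjusted p = 0.000549), which correspond to 2.08-fold and 1.75-fold lower signals. At 16 h neither change passed, though all 3 wild-type-labelled arrays were under those of 0 h (-0.39 ± 0.13, adjusted p = 0.0688), and the mutant-labelled change was 0.23 ± 0.13 (adjusted p = 0.34).

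Cnga2 encodes the principal subunit of the channel that cyclic AMP opens (chrX:71991849-72010218). At 0 h its signals were 10073, 13114 and 10469 in the wild-type-labelled and 8999, 9293 and 8330.4 in the mutant-labelled arrays. At 48 h they were 5128.5, 6943 and 7236 with the wild-type label and 8141.5, 4728 and 6570.2 with the mutant label. The groups at 48 h did not overlap those at 0 h, and mutant-labelled 48 h replicate 1 stood closest. The fall was -0.81 ± 0.15 (adjusted p = 0.000745) in the wild-type-labelled and -0.49 ± 0.15 (adjusted p = 0.0364) in the mutant-labelled arrays. The latter call was lost with all 30 arrays fitted (adjusted p = 0.0503), and without any 1 of the mutant-labelled 0 h arrays or replicate 2 or 3 of 48 h (adjusted p from 0.0528 to 0.22). The gene's other probe set gave -0.81 ± 0.16 (adjusted p = 0.000884) and -0.55 ± 0.16 (adjusted p = 0.0245).

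Reep1 encodes a membrane protein of the endoplasmic reticulum that was found through its help in bringing odorant receptors to the cell surface (chr6:71707429-71810710). Its wild-type-labelled signals at 0, 16 and 48 h were 6099, 6201 and 6049.6, then 6018, 6117 and 5149, then 3559, 4058 and 4769.9. Its mutant-labelled signals were 4442, 4938 and 4062, then 5663, 7154 and 6682, then 4182, 3371 and 3118. It was the 1 gene of the 9 that rose from 0 h at a later time in the 27 arrays: the mutant-labelled 16 h arrays were all above those of 0 h. That rise was 0.53 ± 0.14 (adjusted p = 0.0305), and the call was lost without replicate 1 or 3 of mutant-labelled 0 h or replicate 2 or 3 of 16 h (adjusted p from 0.0747 to 0.142), or with only the 6 arrays compared in the fit (0.0891). At 48 h Reep1 fell in the wild-type-labelled arrays (-0.58 ± 0.14, adjusted p = 0.00602) and gave -0.34 ± 0.14 (adjusted p = 0.113) in the mutant-labelled ones, whose 0 h and 48 h values overlapped. Relative to 16 h the mutant-labelled change was -0.87 ± 0.14 (adjusted p = 0.000743). Its remaining probe set was at or below the floor of 113.7 on 30 of 30 arrays and was not tested.

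S100a5 encodes a calcium-binding protein that is abundant in olfactory neurons and is known to follow their activity (chr3:90606480-90611784). Wild-type-labelled signals were 35573, 40999.8 and 34800.1 at 0 h and 29448, 29269 and 33145 at 48 h. Mutant-labelled signals were 46064, 51528 and 40746 at 0 h, 45124, 59598 and 47149.6 at 16 h and 38471, 39469 and 34561 at 48 h. All 48 h arrays lay below all 0 h arrays of their label, yet the margin was small. The changes of -0.28 ± 0.11 (adjusted p = 0.0914) and -0.29 ± 0.11 (adjusted p = 0.0878) did not pass, while that from 16 to 48 h in the mutant-labelled arrays did (-0.42 ± 0.11, adjusted p = 0.0218). That call was lost without mutant-labelled 16 h replicate 2 or 48 h replicate 3 (adjusted p = 0.137 and 0.0868). This probe set reached 38.0% to 91.7% of the highest signal on its array, so it was among the brightest read.

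Ebf2 encodes an EBF transcription factor of olfactory neurons and their precursors (chr14:67233292-67430952). Its signals were 11975, 15379 and 14031 at 0 h and 9730.1, 9796 and 11358.5 at 48 h on wild-type-labelled arrays. The mutant-labelled values were 12911, 13717 and 11594 at 0 h and 12306, 9727 and 10280.1 at 48 h, and these overlapped. The wild-type-labelled fall of -0.42 ± 0.12 (adjusted p = 0.0219) was the shallowest of those called. It was lost without 0 h replicate 2 or 3 or 48 h replicate 1 or 2 (adjusted p from 0.0659 to 0.107), or with only the 6 arrays compared in the fit (0.0695). The mutant-labelled change was -0.25 ± 0.12 (adjusted p = 0.195). Its wild-type-labelled 16 h values of 10335, 11823 and 10540.0 lay below all 3 at 0 h and overlapped those at 48 h, and its change from 16 to 48 h was -0.08 ± 0.12 (adjusted p = 0.764).

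Ncam2 and Olfm1 belong to the cell surface and its surroundings. Ncam2, also known as OCAM, encodes an adhesion molecule carried by a subset of olfactory axons (chr16:81200697-81624290). Its signals were 1297, 1159 and 998 at 0 h and 571, 537 and 968 at 48 h on wild-type-labelled arrays. The mutant-labelled values were 1097, 889 and 859.7 at 0 h and 718, 542 and 675 at 48 h. No 48 h array reached a 0 h array of its label, and wild-type-labelled 48 h replicate 3 and 0 h replicate 3 came closest. Ncam2 fell by 0.78 ± 0.21 (adjusted p = 0.0112) in the wild-type-labelled arrays, a call lost without 0 h replicate 1 or 48 h replicate 1 or 2 (adjusted p from 0.0522 to 0.0663) or with only those 6 arrays fitted (0.0665), and gave -0.56 ± 0.21 (adjusted p = 0.0781) in the mutant-labelled ones. Its dimmer probe set was at or below the floor on 25 of 30 arrays and was not tested.

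Olfm1 encodes olfactomedin 1, a secreted glycoprotein of neurons (chr2:28193093-28230736). Its wild-type-labelled signals were 4168, 5243 and 4335 at 0 h, 5286.5, 4971.5 and 4544 at 16 h and 3115, 3358 and 3402 at 48 h. The mutant-labelled signals were 5854, 5799.6 and 4843 at 0 h, 5316, 6849 and 6513 at 16 h and 3596, 1929 and 2073 at 48 h. Both labels were lowest at 48 h, and mutant-labelled 48 h replicate 1 stood above all 3 wild-type-labelled 48 h arrays while replicates 2 and 3 stood well below them. The mutant-labelled fall, -1.17 ± 0.17 (adjusted p = 0.000107, 2.25-fold lower), was the largest 48 h change of any of the 9 genes, and the wild-type-labelled change of -0.47 ± 0.17 missed the threshold (adjusted p = 0.0526). The latter passed with quantile normalization (0.0349), robust moderation (0.0426) and only the 6 arrays compared (0.0402, all adjusted p from limma). It also passed with array quality weights (adjusted p = 0.0228 from limma), a fit that includes the mutant-labelled 2 h arrays. With all 30 arrays fitted and no weights it did not pass (adjusted p = 0.115). The difference between the labels' changes was -0.70 ± 0.24 and did not pass (adjusted p = 0.096), whereas without mutant-labelled 48 h replicate 1 it was -0.98 and did (adjusted p = 0.00376).

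Chga encodes chromogranin A, a protein of the dense-core granules in which neurons and endocrine cells store peptides (chr12:102554941-102565027). Its signals were 8329, 9333 and 8142.5 at 0 h and 4811, 5429.6 and 4825 at 48 h on wild-type-labelled arrays. The mutant-labelled values were 9710.0, 8871 and 6527 at 0 h and 6088, 4544 and 5685 at 48 h. The groups did not overlap, and the falls were -0.78 ± 0.14 (adjusted p = 0.000479) and -0.61 ± 0.14 (adjusted p = 0.00606). The other tested probe set, which is dimmer, read 2099, 2603 and 1799.5 at 0 h and 2244.5, 1801 and 1823 at 48 h in the mutant-labelled arrays. There the groups overlapped and the change was -0.14 ± 0.14 (adjusted p = 0.554), so the probe sets disagree on Chga in the mutant-labelled arrays. In the wild-type-labelled arrays the dimmer one fell too at 48 h (-0.68 ± 0.14, adjusted p = 0.0014) and already at 16 h (-0.50 ± 0.14, adjusted p = 0.0265, and 0.0751 with all 30 arrays fitted, which ends the call), where the brighter one gave -0.30 ± 0.14 (adjusted p = 0.175).

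The next question was whether the labelled genotypes differed. At 0 h 1 of 9 genes did, against 23.3% of all tested probe sets: Reep1 was lower in the mutant-labelled arrays by a log2 difference of -0.45 ± 0.14 (adjusted p = 0.0244), with no overlap between labels. That call was lost without wild-type-labelled 0 h replicate 1, 2 or 3 or mutant-labelled 0 h replicate 1 or 3 (adjusted p from 0.0531 to 0.0975). The dimmer Chga probe set was also lower (-0.60 ± 0.14, adjusted p = 0.00447), while the brighter one gave -0.06 ± 0.14 (adjusted p = 0.796). Averaged over 0, 8, 16 and 48 h, Omp (0.36 ± 0.05, adjusted p = 2.35e-05) and S100a5 (0.29 ± 0.06, adjusted p = 0.000375) were higher in the mutant-labelled arrays. With 42.6% of all probe sets called in that comparison, 2 of 9 is no more than the background share. The Omp call was lost with all 30 arrays fitted (adjusted p = 0.536), and with quantile normalization the S100a5 difference was 0.03 (adjusted p = 0.669).

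The 48 h changes themselves were not called different between the labels for any of the 9 genes in limma (1 at an unadjusted p under 0.05), against 4.18% of all probe sets. At 16 h the difference of changes was compared after the values had been seen. All 9 estimates lay above 0, from 0.06 for Olfm1 to 0.62 for Reep1 with a median of 0.29 where that of all genes was 0.02, and they share the same 12 arrays. None passed (4 at an unadjusted p under 0.05), against 0.804% of all probe sets. The nearest were Adcy3 at 0.62 ± 0.19 (adjusted p = 0.0893) and Reep1 at 0.62 ± 0.20 (adjusted p = 0.101).

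The mutant-labelled 2 h arrays gave a picture that differs from gene to gene. Omp read 128.5, 16964 and 3389.5 in replicates 1, 2 and 3, all below every other array of the series but for replicate 2, which lay among the wild-type-labelled 48 h values. The change from 0 h was -4.17 ± 0.86 (adjusted p = 0.00165). On the same arrays the other 8 genes stayed within -0.81 and 0.72 of their 0 h means on the log2 scale. S100a5, for instance, read 47599, 40268 and 43223, inside its 0 h range of 40746 to 51528 but for replicate 2. Cnga2 (0.46 ± 0.16, adjusted p = 0.0433) and Reep1 (0.48 ± 0.15, adjusted p = 0.0279) were higher than at 0 h. Without 2 h replicate 1 the adjusted p was 0.213 and 0.181, and without 0 h replicate 1 or 3 both calls were lost too. With only the 6 arrays compared in the fit none of the 3 calls held, Omp included (adjusted p = 0.223).

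Omp ranked the 3 arrays in the order of their Gapdh difference: replicate 1, with the highest Gapdh value of 5.59, had the lowest Omp, at 0.367% of the 0 h mean, replicate 3 (1.27) had 9.68% and replicate 2 (0.15) had 48.4%. The actin control differences of 2.27, 1.02 and 0.43 in replicates 1, 2 and 3 ranked them otherwise, against 0.45 to 1.11 in the other 27 arrays. The part of RNA quality in these values was not tested, and with Omp, Cnga2 and Reep1 3 of 9 were called against 17.7% of all probe sets. Wild-type-labelled Omp at 2 h, by comparison, was 29564, 28659 and 30467, within the spread at 0 h.

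**Figure D3:**
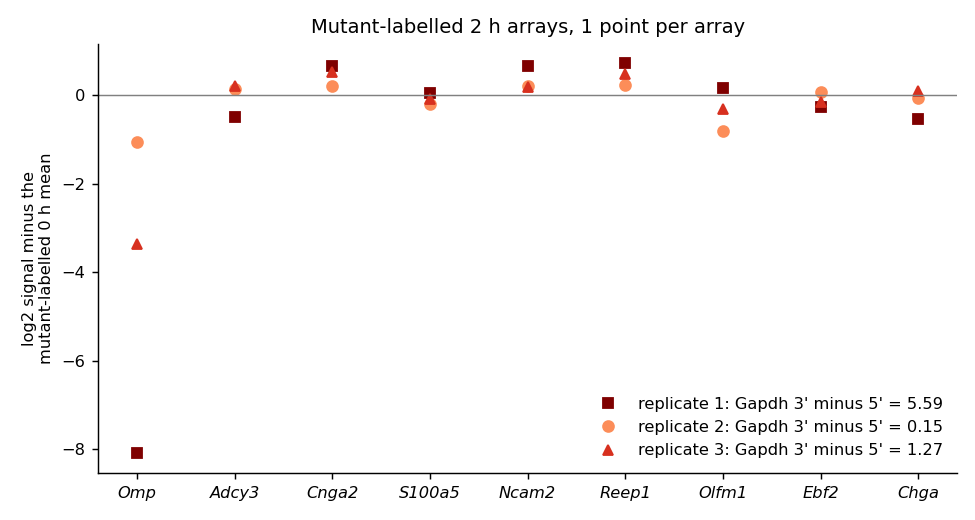
Log2 signal of each gene on the 3 mutant-labelled 2 h arrays minus the mutant-labelled 0 h mean (vertical axis), with 1 symbol per array and the Gapdh 3' minus 5' difference of each array in the legend. Omp lies at -8.09, -1.04 and -3.37 in replicates 1, 2 and 3, while the points of the other 8 genes lie between -0.81 and 0.72.

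In some groups the same array was highest or lowest for most of the 9 genes. Among the wild-type-labelled 48 h arrays replicate 3 was highest for 8 of the 9 genes and replicate 1 lowest for 7. Among the mutant-labelled 48 h arrays replicate 1 was highest for 7 and replicate 2 lowest for 7, and at 0 h replicate 3 was lowest for 9 of 9. Among the wild-type-labelled 0 h arrays, the baseline of that label, replicate 2 was highest for 8 and replicate 3 lowest for 6. Some groups showed less of such an order. At 2 h the 3 wild-type-labelled arrays were highest for 4, 2 and 3 genes and lowest for 2, 3 and 4. The mutant-labelled 16 h arrays were highest for 3, 5 and 1 and lowest for 4, 3 and 2. Over the 27 arrays Pearson's r between pairs of genes ran from 0.28 to 0.89 with a median of 0.68, and 30 of the 36 pairs exceeded 0.5. These are descriptions, since the points share the time course, the array and its scaling.

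By the same measure the genes outside the 9 whose profile was nearest to their mean profile were Ptprr, a neuronal protein tyrosine phosphatase (r = 0.95), Clgn, a chaperone of the endoplasmic reticulum (0.93), Vsnl1, a neuronal calcium sensor (0.93), Pde6d, a carrier of lipid-modified proteins (0.92), and Snap25, a protein of vesicle fusion (0.91). Vsnl1 had the deepest fall of these at 48 h, -1.48 ± 0.24 (adjusted p = 0.000189) in the wild-type-labelled and -1.43 ± 0.24 (adjusted p = 0.000547) in the mutant-labelled arrays. These genes were picked for likeness over the same arrays to a profile that is low at 48 h, so their falls are not independent of that choice. Ptprr and Clgn each have 1 other probe set, which is not described here. The nearest to Omp alone were Cystm1 (r = 0.88), Abhd16a (0.88) and the histone gene H2bc21 (0.87).

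Other genes of the same pathways were counted at 48 h against 0 h, and their medians stand beside those of all genes, -0.02 (wild-type-labelled) and 0.02 (mutant-labelled). Of all tested probe sets, 18.8% (wild-type-labelled) and 13.2% (mutant-labelled) were called in either direction in that comparison. Of 7 tested odorant transduction and receptor trafficking genes, 3 of them among the 9, 3 fell and 1 rose in the wild-type-labelled arrays at 48 h (median -0.26), and 3 fell in the mutant-labelled arrays (median -0.34). The wild-type-labelled fallers were Adcy3, Cnga2 and Reep1, already counted above, and none of the 4 genes outside the 9 fell there. Most genes of that list had no tested probe set, so these counts cover only part of the pathway. The riser was Gnb1, a G protein subunit shared by many cells, at 1.29 ± 0.25 (adjusted p = 0.000965), while in the mutant-labelled arrays it was at -0.15 (difference -1.44, adjusted p = 0.0249). Its other tested probe sets gave 0.00 and 0.36 on wild-type-labelled arrays, and on mutant-labelled arrays 1 of them fell (adjusted p = 3.18e-06) and the other gave -0.17, so the probe sets of Gnb1 disagree. The third faller on mutant-labelled arrays, beside Adcy3 and Cnga2, was Rgs2, a regulator of G protein signalling (-0.72 ± 0.16, adjusted p = 0.00441). Of 4 EBF and LIM homeobox related factors, Ebf1 (-0.49 ± 0.16, adjusted p = 0.0321), Ebf3 (-0.62 ± 0.19, adjusted p = 0.0254) and Ebf2 fell and the cofactor Ldb1 rose (0.41 ± 0.13, adjusted p = 0.0311) in the wild-type-labelled arrays. None of the 4 passed in the mutant-labelled arrays, where Ebf1 was at 0.07 and Ebf3 at -0.03, and the differences between labels did not pass either (adjusted p = 0.156 and 0.224). A further Ebf3 probe set gave -0.60 (adjusted p = 0.00305) and 0.03 (adjusted p = 0.909).

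Chga was also measured beside related genes, and the counts in this paragraph stand against 18.8% (wild-type-labelled) and 13.2% (mutant-labelled) of all probe sets called. Of 6 granin and peptide processing genes 4 fell in each label, the same 4: Chga, Chgb, Scg3 and Cpe, with medians of -0.57 and -0.52. The other tested Chga probe set did not pass in the mutant-labelled arrays (-0.14, adjusted p = 0.554 from limma). Scg3, a sorting protein of the granule membrane, gave -1.17 ± 0.26 (adjusted p = 0.00277) and -1.10 ± 0.26 (adjusted p = 0.00758), though a dimmer probe set of it missed the threshold in both (-0.69 and -0.50, adjusted p = 0.0724 and 0.221). Among 11 synaptic vesicle and general neuronal genes 6 fell in the wild-type-labelled and 3 in the mutant-labelled arrays (medians -0.52 and -0.12), and Syt1, the calcium sensor of transmitter release, fell by 0.99 ± 0.15 (adjusted p = 0.000126) and 1.11 ± 0.15 (adjusted p = 6.5e-05). Of 9 adhesion and axon guidance genes, Ncam2 and Olfm1 among them, 7 fell in the wild-type-labelled and 2 in the mutant-labelled arrays (medians -0.56 and -0.22). The deepest was Epha5, a receptor for ephrins, whose mean signal went from 583 to 180.1 (-1.73 ± 0.25, adjusted p = 4.49e-05) and from 824 to 159.7 (-2.39 ± 0.25, adjusted p = 2.13e-06). Both 48 h means of Epha5 lay under the filter's 572 and near the floor of 113.7, so the depth of these falls is uncertain. Its other probe set was not tested.

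Genes of immature neurons and growing axons gave mixed counts. Of 14 tested, 3 fell and 1 rose in the wild-type-labelled arrays (median -0.18), where 18.8% of all probe sets were called. In the mutant-labelled arrays 1 fell and 1 rose (median 0.17), a share near the 13.2% of all probe sets. Stmn4, a stathmin that binds tubulin in neurons, rose in both, by 1.03 ± 0.18 (adjusted p = 0.000342) and 0.85 ± 0.18 (adjusted p = 0.00351). Stmn3, of the same family, fell in both (-0.57 ± 0.16 each time, adjusted p = 0.0155 and 0.0223) on its brightest probe set and did not pass on the other (-0.13 and -0.34, adjusted p = 0.763 and 0.393).

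**Figure D4:**
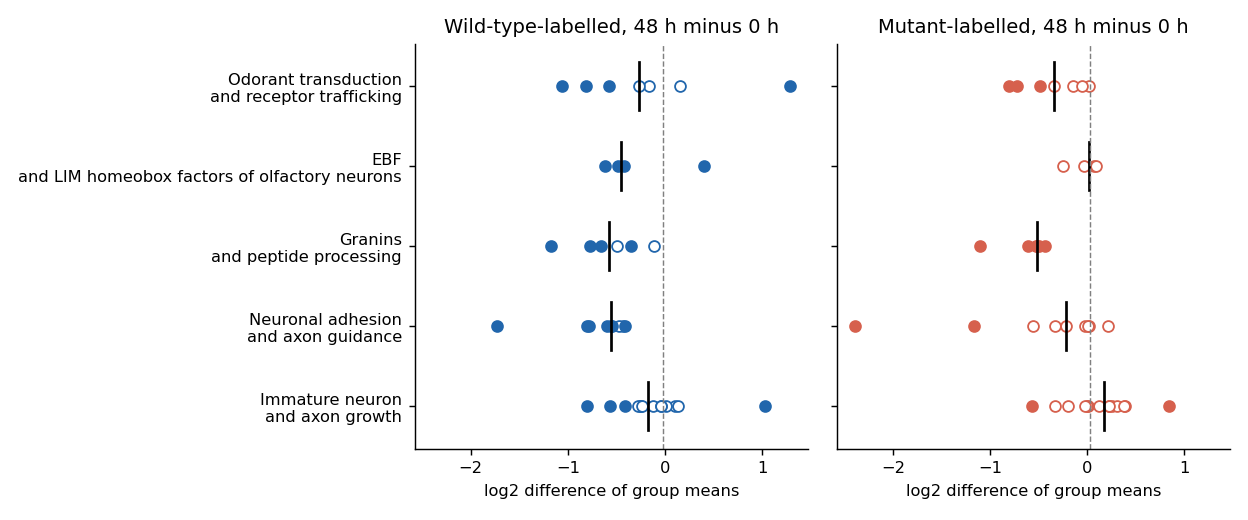
Log2 change from 0 h to 48 h (horizontal axis) of the tested genes in 5 lists, wild-type-labelled on the left and mutant-labelled on the right, with 1 point per gene, filled where the adjusted p is under 0.05. Black bars are list medians and the dashed line is the median of all tested genes, and the granin medians of -0.57 and -0.52 lie left of it in both panels while the immature neuron medians lie on either side of 0.

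Markers of other cells in the tissue were counted over the same interval, in which 18.8% of all probe sets were called in the wild-type-labelled and 13.2% in the mutant-labelled arrays. Of 11 tested macrophage markers 5 rose in each label at 48 h, and their summed signal went from a range of 22006 to 25865 at 0 h to one of 36815 to 40752 in the wild-type-labelled arrays. In the mutant-labelled arrays it went from 24669 to 32193 at 0 h to 31959 to 38303, with overlap. S100a8 and S100a9, calcium-binding proteins of neutrophils, rose in the wild-type-labelled arrays by 2.09 ± 0.36 and 2.01 ± 0.38 (adjusted p = 0.000342 and 0.000884) and were at -0.08 and -0.10 in the mutant-labelled ones. They are 2 of 6 tested neutrophil markers, of which Camp (-1.85, adjusted p = 0.0137) and Csf3r (-0.63, adjusted p = 0.0318) fell in the wild-type-labelled arrays, and 0 of the 6 passed in the mutant-labelled ones. For S100a8 and S100a9 the differences between labels passed (-2.17 and -2.10, adjusted p = 0.0183 and 0.0305). Of 8 fibroblast, bone and cartilage genes 4 fell in the wild-type-labelled and 5 in the mutant-labelled arrays, among them the collagen gene Col3a1 on all 3 of its probe sets and Col1a1 on its brightest, while the other Col1a1 probe set gave -0.21 (adjusted p = 0.464) in the mutant-labelled arrays. Their summed signal at 0 h ran from 99668 to 121287 in the wild-type-labelled and from 124759.6 to 138879.8 in the mutant-labelled arrays, and at 48 h from 43569.8 to 50964 and from 67113 to 101166. Of 9 sustentacular and gland markers 2 rose and 0 fell in the wild-type-labelled arrays and 4 rose and 0 fell in the mutant-labelled ones, the former a share near that of all probe sets. Of the olfactory bulb and brain neuron markers only 1 gene passed the filter on low signals, and Gad2 and Camk2a were at or below the floor on all 27 arrays. The part of changes in tissue makeup in the values of the 9 genes was not tested.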

How the data were processed

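Total RNA of microdissected olfactory epithelium had been hybridised to 30 Affymetrix MG-U74Av2 arrays. The deposited values are MAS5 signal intensities, 1 per probe set, per the submitters' processing notes, which give no version of MAS5. The 2% trimmed mean was 1500.7 to 1500.9 on each array, so the deposited intensities were already scaled to a common level. Array number limits the precision.

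Probe sets were named through GEO's platform annotation: leaving out 66 controls, 10833 had 1 gene symbol, 396 several and 1193 none. Signals were floored at 113.7 (the 25th percentile of all values) and log2 transformed, and probe sets above the pooled median of 572 on at least 3 arrays were tested (6968). Groups came from the sample titles. Contrasts of group means were fitted with limma 3.58.1 (lmFit, eBayes) in R 4.3.3, with Benjamini-Hochberg adjustment, on 27 arrays, and on all 30 for the mutant-labelled 2 h comparison. All comparisons of a label with 0 h share the same 3 arrays at 0 h, and no correlation between comparisons is given for that reason. On data simulated for the 48 h comparisons over 6968 probe sets, the fit recovered 94% of those changed 2-fold in each label. It also called 10 unchanged probe sets in the wild-type-labelled and 12 in the mutant-labelled comparison. Recovery of changes under 2-fold is not given, and most 48 h changes of the genes described here were smaller than that. The simulation therefore does not show that a gene without a call was unchanged.

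The 9 genes and the lists of related genes and markers were chosen with earlier results of these data known. Named were each of the 9 on its brightest probe set and on the others, up to 4 genes per list with the largest called 48 h change, the 5 genes nearest to the mean profile and the 3 nearest to Omp. The comparison of 16 h changes between labels was added after the values had been seen. Alternatives were the filter, a pseudocount, quantile normalization, a replicate block, robust moderation, array weights, the arrays fitted, the probe set and leaving out each array. Promoters are RefSeq's (GRCm38.p6), and Python 3.11.15 was used for tables and figures.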

Additional observations from a re-analysis of the deposited data

How the results depend on the processing

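Adding 16 to the signal in place of the floor left every count within 1.5 times. The cause of each shift below was not tested, except that a fit on fewer arrays has fewer degrees of freedom. With only the groups compared in the fit, probe sets called went from 132 to 59 at 2 h, from 17 to 0 at 8 h and from 326 to 48 for 48 against 16 h in the wild-type-labelled arrays. In the mutant-labelled arrays they went from 1233 to 31 at 2 h, 361 to 145 at 16 h, 923 to 204 at 48 h and 627 to 57 for 48 against 16 h. The differences in change went from 291 to 77 at 48 h and from 56 to 98 at 16 h. In the same setting the counts among the 9 genes were 1 at 16 h and 0 for 48 against 16 h (wild-type-labelled), and 0 at 2 h, 0 at 16 h, 2 at 48 h and 1 for 48 against 16 h (mutant-labelled); Ncam2 and Ebf2 no longer passed at 48 h on wild-type-labelled arrays (adjusted p = 0.0665 and 0.0695). With all 30 arrays fitted, 40 probe sets were called at 2 h on wild-type-labelled arrays and 8 for the difference at 16 h, and among the 9 genes 1 was called for wild-type-labelled 48 against 16 h, 3 for mutant-labelled 48 h and 1 between labels over 4 times. The array quality weights were fitted on all 30 arrays. Mutant-labelled 2 h replicates 1, 2 and 3 had weights of 0.14, 0.32 and 3.81, the last being the highest of the 30. With these weights the wild-type-labelled counts were 1420 at 2 h, 58 at 8 h, 1770 at 16 h and 514 for 48 against 16 h. The mutant-labelled ones were 401 at 8 h and 389 for 48 against 16 h, and the difference at 16 h gave 451. Among the 9 genes the weights gave 3 at 2 h and 2 at 16 h (wild-type-labelled), 2 between labels at 0 h, and 1 and 2 for the differences at 48 and 16 h. With replicate 2 as the only mutant-labelled 2 h array, 320 probe sets and 1 of the 9 genes passed. With no filter on low signals 11 probe sets passed at 8 h (wild-type-labelled) and 37 for the difference at 16 h, and among the 9 genes 2 for wild-type-labelled 48 against 16 h and 0 at 16 h in the mutant-labelled arrays. Robust moderation with a variance trend gave 87 probe sets for the difference at 16 h and 2 of the 9 genes between labels at 0 h. Quantile normalization gave 3 of the 9 at 16 h (wild-type-labelled) and 2 between labels at 0 h. With the other probe set of Cnga2 and Chga, 1 of the 9 passed at 16 h (wild-type-labelled) and 2 between labels at 0 h, and the Chga difference between labels over 4 times turned from 0.07 to -0.18 (adjusted p = 0.0384, and 0.0944 with all 30 arrays fitted).

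Leaving out 1 array at a time gave 0 to 137, 3 to 125, 272 to 413, 830 to 1186 and 89 to 340 called probe sets for the wild-type-labelled 2, 8, 16 and 48 h and 48 against 16 h comparisons. The mutant-labelled ones gave 510 to 1573, 66 to 125, 138 to 283, 545 to 1163 and 302 to 898. Between labels the ranges were 989 to 1378 at 0 h, 2740 to 2969 over 4 times, 131 to 410 for the difference at 48 h and 8 to 65 for that at 16 h. Among the 9 genes they were 0 to 0 at wild-type-labelled 2, 8 and 16 h, 5 to 7 at 48 h and 0 to 4 for 48 against 16 h. They were 1 to 3, 0 to 0, 0 to 1, 4 to 6 and 6 to 7 for the mutant-labelled comparisons in the same order, 0 to 1 and 2 to 3 between labels, and 0 to 1 and 0 to 0 for the differences.

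The replicate number as a block gave 3 of the 9 genes for wild-type-labelled 48 against 16 h and 2 between labels at 0 h. It ended the calls of Cnga2 (adjusted p = 0.0555) and Olfm1 (0.0585) in the former and of Cnga2 at 2 h in the mutant-labelled arrays (0.0535), added S100a5 between labels at 0 h (0.0355), and changed no other call among the 9. The numbers do not pair the arrays: deviations of same-numbered arrays had a median correlation of -0.01 (-0.35 to 0.35, 108 pairs).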

Other observations

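Some marker genes of dividing and basal cells, counted nowhere above, differed at 48 h. Of all probe sets, 18.8% (wild-type-labelled) and 13.2% (mutant-labelled) were called over that interval. Of 9 tested progenitor markers the 4 with the largest called change are given, so they do not stand for the list. Pax6 and Sox2, transcription factors of basal and supporting cells, rose in the wild-type-labelled arrays by 0.75 ± 0.12 (adjusted p = 0.000156) and 0.73 ± 0.19 (adjusted p = 0.00822). In the mutant-labelled arrays Pax6 rose by 0.51 ± 0.12 (adjusted p = 0.00749) and Sox2 was at 0.46 ± 0.19 (adjusted p = 0.106). Top2a, a topoisomerase of dividing cells, fell by 0.61 ± 0.15 in the wild-type-labelled arrays (adjusted p = 0.00768) and was at -0.26 (adjusted p = 0.289) in the mutant-labelled ones. Kit, a receptor found on a subset of precursors, fell in the wild-type-labelled arrays (-0.48, adjusted p = 0.0114) and was at 0.23 (adjusted p = 0.239) in the mutant-labelled ones. The difference between labels passed (0.71, adjusted p = 0.0288). Mean Kit signals with the wild-type and mutant labels were 1050.2 and 672.9 at 0 h and 755.4 and 797.4 at 48 h, so the labels stood further apart at 0 h. Of 4 tested horizontal basal cell markers, Icam1 (1.70 ± 0.46, adjusted p = 0.0115) and Itga6 (0.63 ± 0.18, adjusted p = 0.0148) rose in the wild-type-labelled arrays. Neither passed in the mutant-labelled ones (adjusted p = 0.509 and 0.794). Mean Icam1 signals at 0 and 48 h were 235 and 721.2 with the wild-type label and 144.8 and 213.9 with the mutant label. Of these means only that of wild-type-labelled 48 h was above the filter's 572. Icam1 may thus have been tested through the group in which it was called higher. Its mutant-labelled means lay near the floor of 113.7, so its values are descriptions only. Of the 4 respiratory ciliated cell markers, Spa17, a sperm and cilia protein, fell in both, by 0.83 ± 0.15 (adjusted p = 0.000465) and 1.02 ± 0.15 (adjusted p = 0.000115). Tekt1 fell in the mutant-labelled arrays only (-0.64 ± 0.18, adjusted p = 0.0219, against -0.11, adjusted p = 0.705).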
